A study of Homo sapiens with 9 samples.

Results

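The genes described are 39 targets of the transcription factor NRF2 and antioxidant enzymes, listed by symbol from what they are known to do. The list was drawn up with earlier results of these data known. Shares of members set beside shares of all probe sets are therefore a description and not a test. Of the 39 symbols, 37 had a probe set that the array annotation pairs with that symbol alone, and 33 had a highest log2 signal of at least 5 over the 9 arrays. The 33 measured members stand among 11233 genes measured by the same rule. GPX2, GPX3, GSTM3 and SOD3 stayed under 5 in every array, and PRDX5 and FTH1 had no probe set of their own. Just outside that limit SOD3 reached 4.46 and GSTM3 4.09, and just inside it AKR1B10 reached 5.48 and HMOX1 5.54.

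NRF2, encoded by NFE2L2, is held in the cytoplasm and sent for degradation by KEAP1. When electrophiles or oxidants modify KEAP1, NRF2 accumulates, pairs with small MAF proteins and binds antioxidant response elements in the promoters of genes for glutathione synthesis, the thioredoxin system, NADPH supply, quinone and carbonyl reduction, conjugate export and iron handling. In tumors the pathway is known for protecting cells from oxidants and drugs.

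Total RNA was hybridised to Affymetrix Human Gene ST arrays, 3 for each of 3 groups. The first group was labelled as SK-BR-3 cells carrying the cDNA of TFPIα, the secreted form of tissue factor pathway inhibitor, the second as the same cells with the cDNA of TFPIβ, the form anchored to the cell surface, and the third as the same cells with the empty vector pTOPO. SK-BR-3 is a breast cancer line with amplified ERBB2. Cells of all 3 groups had been transfected and drug-selected (the labels name puromycin and the methods neomycin), each group was 1 pool of selected cells, and the 3 arrays of a group came from 3 RNA isolations, so p-values measure the spread between isolations of 1 pool and not between separately made lines.

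By the study's account the transfected cDNA lacks the untranslated ends that probes of TFPI on the array recognise. TFPI, as summarised by RMA, could therefore not be used to check the labels. Its probe set measured 5.66, 5.81 and 5.51 in the TFPIα-labelled arrays and 5.55, 5.79 and 5.81 in the TFPIβ-labelled arrays, against 5.81, 6.48 and 6.45 in the empty vector-labelled arrays. The study reports TFPI as upregulated for both isoforms when expression was calculated with PLIER, an algorithm that drops probes of low signal. It also measured TFPI in these cells by qRT-PCR and as antigen. None of those values were analysed here. Of the markers of luminal cells, KRT18 measured 9.49 to 10.76, KRT8 5.68 to 6.20, GATA3 4.86 to 5.82 and KRT19 4.64 to 5.25 in the 9 arrays, while EPCAM and ESR1 stayed under 5. ERBB2 measured 5.63 to 6.24. The basal keratins KRT5 and KRT14 measured 12.40 to 12.83 and 11.99 to 12.74. The other markers listed for the ERBB2 amplicon, GRB7, STARD3 and PGAP3, measured 5.04 to 5.30, 6.45 to 6.58 and 5.22 to 5.65. By mean signal KRT5 and KRT14 stood at percentiles 99.88 and 99.8 of all probe sets, ERBB2 at 65.69 and EPCAM at 17.52. For a line labelled as one with amplified ERBB2, ERBB2 was thus not bright, while the basal keratins were. The identity of the cells was not tested, and the groups are called by their labels throughout.

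Antioxidant response elements share a core, TGACNNNGC, which was searched on both strands of the RefSeq promoter windows (250 bases before to 50 after a gene's start, GRCh38.p14). Windows were at hand for 30 of the 39 members, and 8 of these held the core (26.7%), against 16.1% of 27305 genes and 13.3% of 35116 windows. The 8 were GCLM, TXNRD1, PGD, ME1, GSTP1, MGST1, KEAP1 and GPX2. For 5 of them 1 match is shown as an example, with 10 bases on each side and the core letters in capitals: GCLM, TXNRD1, PGD and ME1, which measured higher on average in the TFPIα-labelled arrays, and GSTP1, which did not. In ME1 and GSTP1 the core overlaps TGACTCA, the motif of AP-1.
GCLM, chr1:93909446-93909474, plus strand: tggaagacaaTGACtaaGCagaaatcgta
TXNRD1, chr12:104215670-104215698, plus strand: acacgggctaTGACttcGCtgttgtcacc
PGD, chr1:10398853-10398881, minus strand: agcacctagaTGACattGCcccggcgagg
ME1, chr6:83431170-83431198, minus strand: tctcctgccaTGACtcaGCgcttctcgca
GSTP1, chr11:67583736-67583764, plus strand: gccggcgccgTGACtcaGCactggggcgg
A match is a description of the letters only. NQO1, TXN and SRXN1, which are described beside these genes, had a window without the core. Elements outside the window, such as further upstream, were not searched for any gene.

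The first question was whether the members differed between TFPIα-labelled and empty vector-labelled arrays. None of the 33 was called at an adjusted p under 0.05 with a fold change (FC) of at least 2 (all probe sets, 0.00572%), nor at the false discovery rate of 10% that the methods name in place of the 0.05 of the results text. At an unadjusted p under 0.05, 7 members (21.2%) lay higher, against 8.59% of the 17482 probe sets tested, and 2 members (6.06%) lay lower, against 5.58%. The 7 were AKR1B10, GCLM, NQO1, SRXN1, PRDX1, TALDO1 and TXN, and the 2 were GPX1 and ABCC3. AKR1B10 passed the limit of 5 only through arrays of the TFPI labels, so these counts are given without it too: 6 of 32 lay higher (18.8%) and 2 lower (6.25%). Without TFPIα replicate 2 the number higher was 2, and without empty vector replicate 2 it was 4. All 3 TFPIα-labelled arrays were above all 3 empty vector-labelled arrays for 10 members (30.3%, all probe sets 14.4%) and below them for 2 (6.06%, all probe sets 8.85%), or above for 9 of 32 (28.1%) without AKR1B10. Compared within each replicate number, 12 members, AKR1B10 among them, lay higher in all 3 numbers (36.4%, all probe sets 22.6%) and 4 lower (12.1%, all probe sets 18.7%). With the replicate number as a block, 8 of the 33 lay higher at an unadjusted p under 0.05 (24.2%, all probe sets 11.9%). In that fit 2 lay lower (6.06%, all probe sets 8.38%). AKR1B10 was kept in the counts of that fit, which were not taken without it. The log2 fold change was above 0 for 21 members (63.6%, all probe sets 50.0%), with a median of 0.12 over the members and 0.00 over all probe sets. Without AKR1B10 it was above 0 for 20 of 32 (62.5%), with a median of 0.10. By role, it was above 0 for 3 of 3 genes of the thioredoxin system, 4 of 4 of NADPH supply and 3 of 4 peroxiredoxins. It was above 0 for 2 of 3 of glutathione synthesis and reduction and 4 of 6 of quinone, carbonyl and aldehyde reduction. AKR1B10 is among the latter 4. Neither glutathione peroxidase (0 of 2) nor exporter (0 of 2) was above 0. The remaining roles were mixed: NFE2L2, CAT, GSTP1 and HMOX1 lay below 0, and KEAP1, OSGIN1, SOD1, MGST1 and FTL above. Each role holds few genes.

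**Figure D1:**
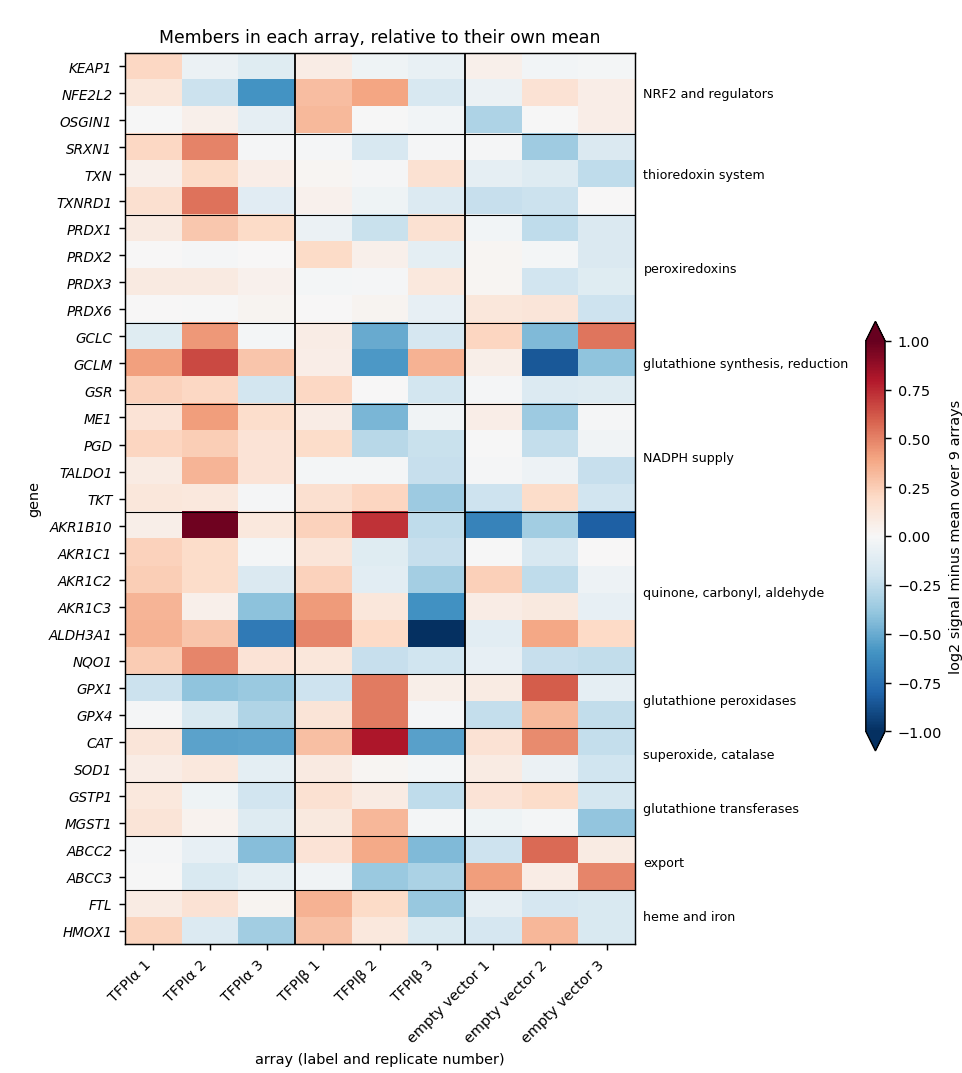
Log2 RMA signal of the 33 measured members (rows, grouped by role) in the 9 arrays (columns, by label and replicate number), as the difference from each gene's mean over the 9 arrays; red is above the mean, blue below, and the scale ends at 1 in both directions. TFPIα replicate 2 holds the highest signal of 11 members, and TFPIβ replicate 3 the lowest of 10. The same counts over all probe sets were not taken.

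NQO1 makes quinones harmless by reducing them with 2 electrons at once and is a widely used readout of NRF2 activity. It measured 11.78, 12.02 and 11.67 in the TFPIα-labelled arrays and 11.64, 11.30 and 11.33 in the TFPIβ-labelled arrays, against 11.45, 11.30 and 11.29 in the empty vector-labelled arrays. The 3 TFPIα-labelled arrays were above the other 6, and the TFPIβ-labelled and empty vector-labelled arrays overlapped. The log2 fold change between TFPIα-labelled and empty vector-labelled arrays was 0.48 ± 0.13 (SE, n = 3 each, FC 1.39), with a limma adjusted p of 0.335. Between TFPIβ-labelled and empty vector-labelled arrays it was 0.08, with a 95% interval of -0.22 to 0.38, and between TFPIβ-labelled and TFPIα-labelled arrays it was -0.40 ± 0.13, with a limma adjusted p of 0.532. Without TFPIβ replicate 1 the difference between TFPIβ-labelled and empty vector-labelled arrays was -0.029. The gene lies at chr16:69709401-69726560 (RefSeq, GRCh38.p14).

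Glutathione synthesis begins with glutamate-cysteine ligase, an enzyme of 2 subunits. GCLM, its modifier subunit (chr1:93885199-93909430), measured 7.07, 7.31 and 6.94 in the TFPIα-labelled arrays and 6.72, 6.09 and 7.01 in the TFPIβ-labelled arrays, against 6.72, 5.81 and 6.26 in the empty vector-labelled arrays. Its log2 fold change between TFPIα-labelled and empty vector-labelled arrays was 0.84 ± 0.28 (SE, FC 1.8), with a limma adjusted p of 0.335, and the difference within replicate numbers 1, 2 and 3 was 0.35, 1.50 and 0.68. GCLC, the catalytic subunit, measured 8.04, 8.59 and 8.14 in the TFPIα-labelled arrays and 8.23, 7.66 and 7.99 in the TFPIβ-labelled arrays, against 8.38, 7.72 and 8.70 in the empty vector-labelled arrays. The groups overlapped for GCLC, with a log2 fold change of -0.01 between TFPIα-labelled and empty vector-labelled arrays and a 95% interval of -0.62 to 0.61, and the sign turned on leaving out any of 4 single arrays. For both subunits the signals of TFPIβ replicate 2 and empty vector replicate 2 were the lowest of the 9. GSR, which reduces oxidized glutathione, measured 9.36, 9.34 and 8.95 in the TFPIα-labelled arrays, against 9.12, 9.0 and 9.01 in the empty vector-labelled arrays, so the groups overlapped.

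The thioredoxin system reduces protein disulfides and refills most of the peroxiredoxins with electrons. TXN, thioredoxin itself, measured 11.33, 11.47 and 11.35 in the TFPIα-labelled arrays and 11.30, 11.27 and 11.43 in the TFPIβ-labelled arrays, against 11.19, 11.15 and 11.03 in the empty vector-labelled arrays. All 6 arrays of the TFPI labels were above the 3 empty vector-labelled ones, by 0.26 ± 0.09 for TFPIα and 0.21 ± 0.09 for TFPIβ on the log2 scale (SE, limma adjusted p = 0.335 and 1). TXNRD1, thioredoxin reductase, measured 10.06, 10.45 and 9.78 in the TFPIα-labelled arrays, against 9.67, 9.68 and 9.90 in the empty vector-labelled arrays. These overlapped, because TFPIα replicate 3 lay below empty vector replicate 3. SRXN1, the sulfiredoxin that restores overoxidized peroxiredoxins, measured 8.77, 9.05 and 8.54 in the TFPIα-labelled arrays, against 8.54, 8.20 and 8.41 in the empty vector-labelled arrays, a log2 fold change of 0.40 ± 0.14 (SE, limma adjusted p = 0.335).

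The peroxiredoxins remove hydrogen peroxide, most of them with thioredoxin as donor. PRDX1 measured 10.73, 10.91 and 10.83 in the TFPIα-labelled arrays and 10.58, 10.42 and 10.79 in the TFPIβ-labelled arrays. In the empty vector-labelled arrays it measured 10.61, 10.38 and 10.49. The mitochondrial PRDX3 measured 10.46, 10.46 and 10.41 in the TFPIα-labelled arrays and 10.35, 10.36 and 10.47 in the TFPIβ-labelled arrays, against 10.39, 10.17 and 10.25 in the empty vector-labelled arrays. For both genes the TFPIα-labelled arrays lay above the empty vector-labelled ones, with log2 fold changes of 0.33 and 0.17, and TFPIβ replicate 3 stood within the range of the TFPIα-labelled arrays for PRDX1 and above it for PRDX3. PRDX2 kept between 5.90 and 6.24 and PRDX6 between 10.94 and 11.27 in all 9 arrays, with overlapping groups.

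NADPH feeds glutathione reductase, thioredoxin reductase and NQO1. PGD, of the oxidative pentose phosphate pathway, measured 10.88, 10.91 and 10.80 in the TFPIα-labelled arrays and 10.84, 10.38 and 10.44 in the TFPIβ-labelled arrays, against 10.66, 10.42 and 10.63 in the empty vector-labelled arrays. TALDO1 is transaldolase, of the pentose phosphate pathway but not of its oxidative part. It measured 9.94, 10.20 and 10.00 in the TFPIα-labelled arrays and 9.84, 9.84 and 9.63 in the TFPIβ-labelled arrays. In the empty vector-labelled arrays it measured 9.85, 9.81 and 9.63. ME1, malic enzyme, measured 8.51, 8.79 and 8.55 in the TFPIα-labelled arrays and 8.45, 7.91 and 8.34 in the TFPIβ-labelled arrays, against 8.44, 8.01 and 8.36 in the empty vector-labelled arrays. For these 3 enzymes the TFPIα-labelled arrays were all above the empty vector-labelled arrays, by 0.29, 0.28 and 0.35 on the log2 scale. TKT, transketolase, overlapped, with a log2 fold change of 0.14.

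**Figure D2:**
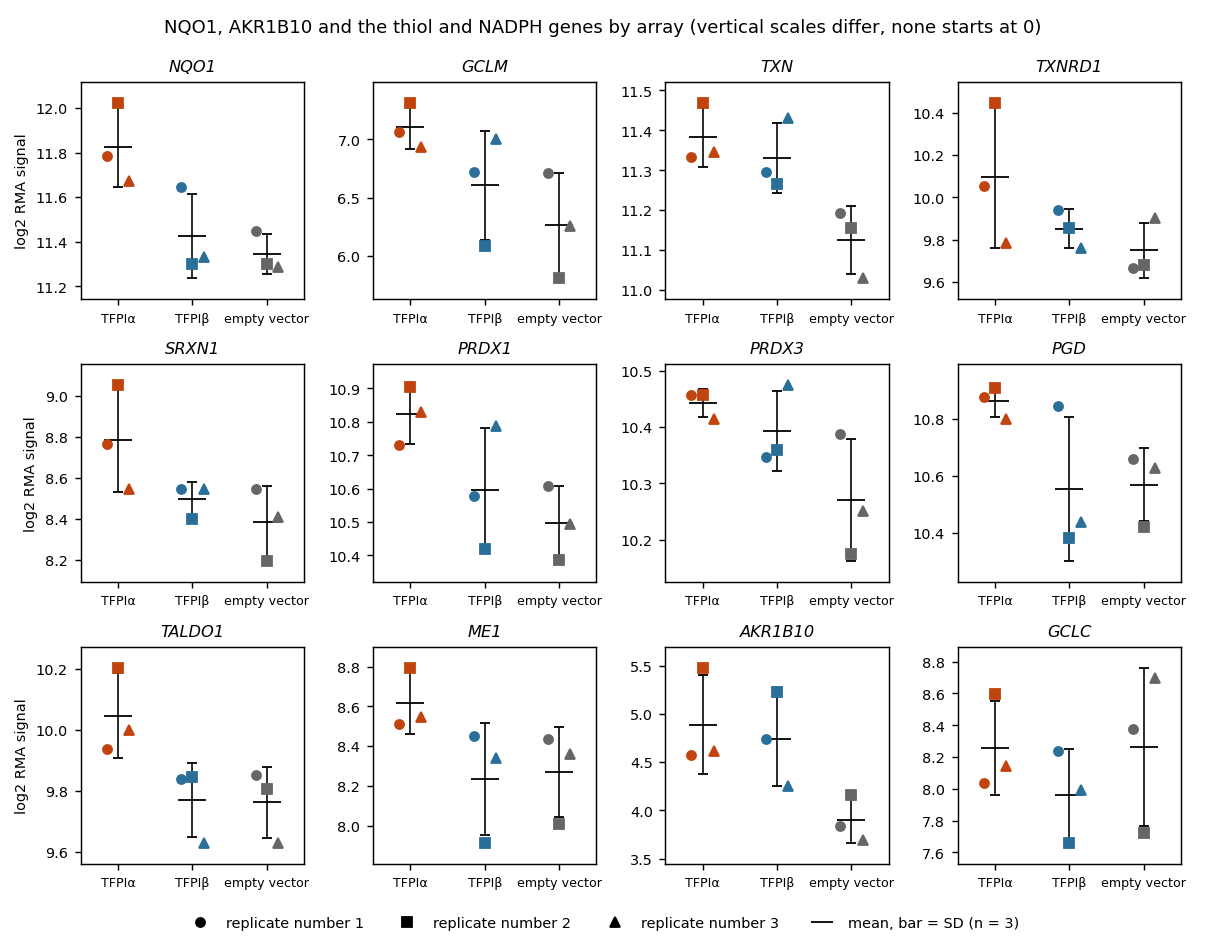
Log2 RMA signal (vertical axes, 1 panel per gene) of 12 members in the TFPIα-, TFPIβ- and empty vector-labelled arrays; the marker shape gives the replicate number, the dash the group mean and the bar the SD (n = 3). NQO1 lies at 11.67 to 12.02 in the TFPIα-labelled arrays and at 11.29 to 11.45 in the empty vector-labelled arrays, while GCLC overlaps.

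Among the carbonyl reductases AKR1B10, an aldo-keto reductase of retinal and lipid aldehydes, had the largest log2 fold change of the 33 members in both comparisons with empty vector and the dimmest signal. It measured 4.57, 5.48 and 4.61 in the TFPIα-labelled arrays and 4.74, 5.23 and 4.25 in the TFPIβ-labelled arrays, against 3.84, 4.16 and 3.70 in the empty vector-labelled arrays. The log2 fold changes were 0.99 ± 0.31 for TFPIα (FC 1.99, limma adjusted p = 0.335) and 0.84 ± 0.31 for TFPIβ (FC 1.79, limma adjusted p = 1). The gene passed the limit of 5 only through replicate 2 of each TFPI label, so it could be kept only by being higher in those groups, and the array medians were 4.78 to 4.88. AKR1C1, AKR1C2 and AKR1C3, steroid and aldehyde reductases, are closely related genes whose probes may share signal. AKR1C1 measured 11.65 to 12.11, AKR1C2 11.63 to 12.22 and AKR1C3 10.19 to 11.22 over the 9 arrays, and their groups overlapped in both comparisons with empty vector.

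Glutathione peroxidases and catalase remove peroxides without thioredoxin. GPX1, the main cytosolic glutathione peroxidase, measured 9.98, 9.79 and 9.83 in the TFPIα-labelled arrays and 9.99, 10.71 and 10.25 in the TFPIβ-labelled arrays, against 10.28, 10.80 and 10.11 in the empty vector-labelled arrays. The 3 TFPIα-labelled arrays were below the other 6, with a log2 fold change of -0.53 ± 0.22 against empty vector (SE, FC 0.693, limma adjusted p = 0.347), whereas a second, dimmer probe set of GPX1 had a difference of 0.01. CAT, catalase of the peroxisome, measured 7.22, 6.57 and 6.57 in the TFPIα-labelled arrays and 7.39, 7.90 and 6.55 in the TFPIβ-labelled arrays, against 7.24, 7.57 and 6.86 in the empty vector-labelled arrays. GPX4, which reduces lipid peroxides in membranes, measured 9.15, 9.01 and 8.86 in the TFPIα-labelled arrays and 9.29, 9.68 and 9.15 in the TFPIβ-labelled arrays, against 8.92, 9.49 and 8.91 in the empty vector-labelled arrays. For GPX1, CAT and GPX4 the 2 highest of the 9 signals were those of TFPIβ replicate 2 and empty vector replicate 2, the arrays in which GCLC and GCLM were lowest. SOD1, the cytosolic superoxide dismutase, kept between 10.35 and 10.66 in all arrays.

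Both measured exporters of glutathione and glucuronide conjugates lay lower on average under the TFPI labels. ABCC3 (chr17:50634881-50692253) measured 7.16, 7.01 and 7.06 in the TFPIα-labelled arrays and 7.12, 6.79 and 6.84 in the TFPIβ-labelled arrays, against 7.58, 7.24 and 7.65 in the empty vector-labelled arrays. The 3 empty vector-labelled arrays were above the other 6, with log2 fold changes of -0.41 ± 0.14 for TFPIα (limma adjusted p = 0.335) and -0.57 ± 0.14 for TFPIβ (limma adjusted p = 0.801). ABCC2 overlapped, at 8.95, 8.88 and 8.54 in the TFPIα-labelled arrays and 9.10, 9.34 and 8.52 in the TFPIβ-labelled arrays, against 8.76, 9.53 and 9.04 in the empty vector-labelled arrays. Of the glutathione transferases, GSTP1 measured 10.85 to 11.29 and the membrane-bound MGST1 9.55 to 10.27 over the 9 arrays, with overlapping groups.

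Of the genes of heme and iron, FTL, the ferritin light chain, measured 10.11, 10.17 and 10.06 in the TFPIα-labelled arrays, against 9.94, 9.87 and 9.88 in the empty vector-labelled arrays, without overlap and with a log2 fold change of 0.22. HMOX1, heme oxygenase and a strongly inducible NRF2 target, measured 5.43, 5.07 and 4.86 in the TFPIα-labelled arrays and 5.51, 5.31 and 5.06 in the TFPIβ-labelled arrays, against 5.05, 5.54 and 5.06 in the empty vector-labelled arrays. Its groups overlapped at signals just above the array medians.

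For NFE2L2, which encodes NRF2, and for KEAP1 and OSGIN1 the groups overlapped. NFE2L2 measured 9.72, 9.39 and 9.01 in the TFPIα-labelled arrays and 9.91, 10.00 and 9.45 in the TFPIβ-labelled arrays, against 9.55, 9.75 and 9.67 in the empty vector-labelled arrays. KEAP1 kept between 7.51 and 7.84 and OSGIN1, an oxidative stress target, between 5.65 and 6.27 in all 9 arrays. NFE2L2 had a log2 fold change of -0.28 between TFPIα-labelled and empty vector-labelled arrays (95% interval -0.75 to 0.18) and of 0.13 between TFPIβ-labelled and empty vector-labelled arrays (-0.33 to 0.59). The arrays measure the transcript, and NRF2 is controlled largely as a protein.

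**Figure D3:**
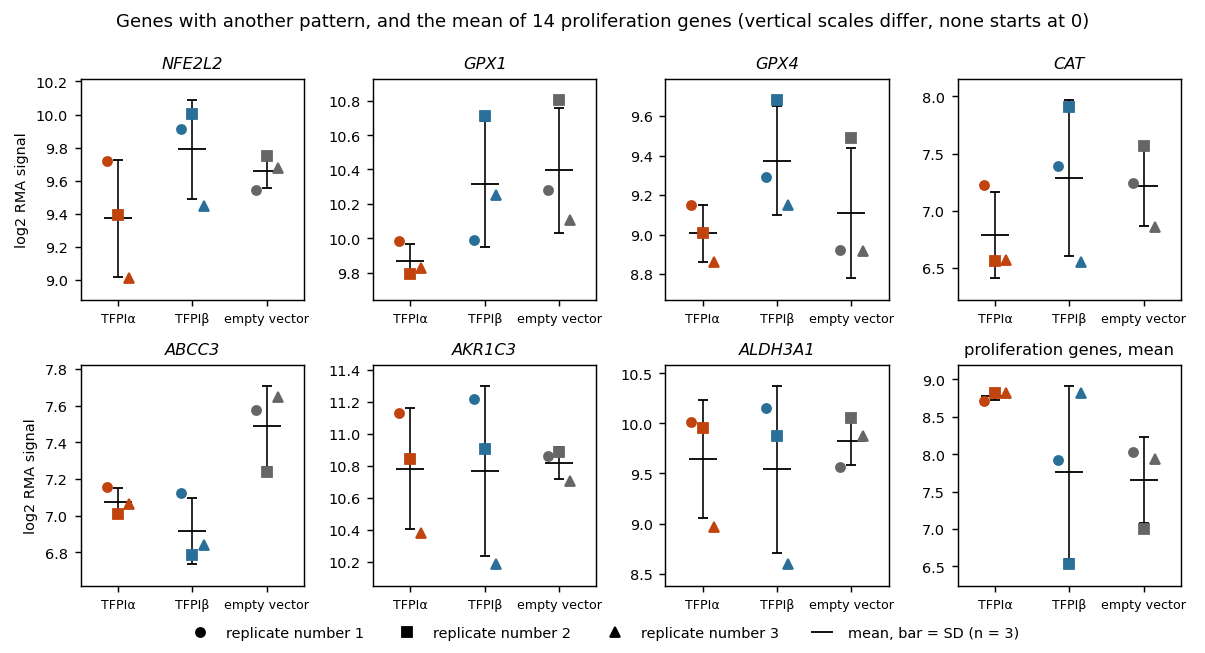
Log2 RMA signal (vertical axes) of 7 members and, in the last panel, the mean log2 signal of 14 proliferation genes, in the TFPIα-, TFPIβ- and empty vector-labelled arrays; the marker shape gives the replicate number, the dash the group mean and the bar the SD (n = 3). CAT is highest in replicate 2 of TFPIβ and of empty vector, at 7.90 and 7.57, and ALDH3A1 is lowest in replicate 3 of both TFPI labels, at 8.97 for TFPIα and 8.59 for TFPIβ.

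Genes outside the pathway also differed in level between these arrays. The log2 fold change between TFPIα-labelled and empty vector-labelled arrays was above 0 for 14 of 14 proliferation genes, with a median of 1.15, and 6 had an unadjusted p under 0.05. Their mean log2 signal was 8.71 to 8.82 in the TFPIα-labelled arrays and 7.92, 6.53 and 8.82 in the TFPIβ-labelled arrays, against 8.03, 7.0 and 7.94 in the empty vector-labelled arrays, so it too was lowest in TFPIβ replicate 2 and empty vector replicate 2 and as high in TFPIβ replicate 3 as in the TFPIα-labelled arrays. Of 10 housekeeping genes, 8 had a log2 fold change above 0 in that comparison, with a median of 0.17. Among fibroblast markers COL1A1 measured 6.18 to 7.14 in the TFPIα-labelled arrays and 6.64 to 7.69 in the TFPIβ-labelled arrays, against 6.79 to 7.72 in the empty vector-labelled arrays, and COL1A2, COL3A1 and PDGFRB stayed under 5. The part of these genes in the differences of the members was not tested, and fewer cells of a type and less RNA per cell cannot be told apart in bulk RNA.

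Between TFPIβ-labelled and empty vector-labelled arrays, which share the control arrays with the first comparison, 20 of 33 members (60.6%) had a log2 fold change above 0, against 50.5% of all probe sets, and none was called (all probe sets, 0.0%). At an unadjusted p under 0.05, AKR1B10 and TXN lay higher (6.06% of members, all probe sets 2.49%) and ABCC3 lower (3.03%, all probe sets 2.23%). Without AKR1B10, which passed the limit of 5 only through arrays of the TFPI labels, 1 of 32 lay higher (3.12%). The log2 fold change was then above 0 for 19 of 32 (59.4%). The genes whose arrays did not overlap were again AKR1B10 and TXN, which lay above (all probe sets, 3.43%), and ABCC3, which lay below (all probe sets, 3.74%). Without AKR1B10, 1 of 32 lay wholly above (3.12%). With the replicate number as a block, 2 members lay higher (6.06%, all probe sets 3.64%) and 1 lower (3.03%, all probe sets 3.51%). These block counts keep AKR1B10 among the 33 and were not taken without it, so the share higher is not a result about the members. Without TFPIβ replicate 1, or without empty vector replicate 3, neither AKR1B10 nor TXN kept an unadjusted p under 0.05.

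**Figure D4:**
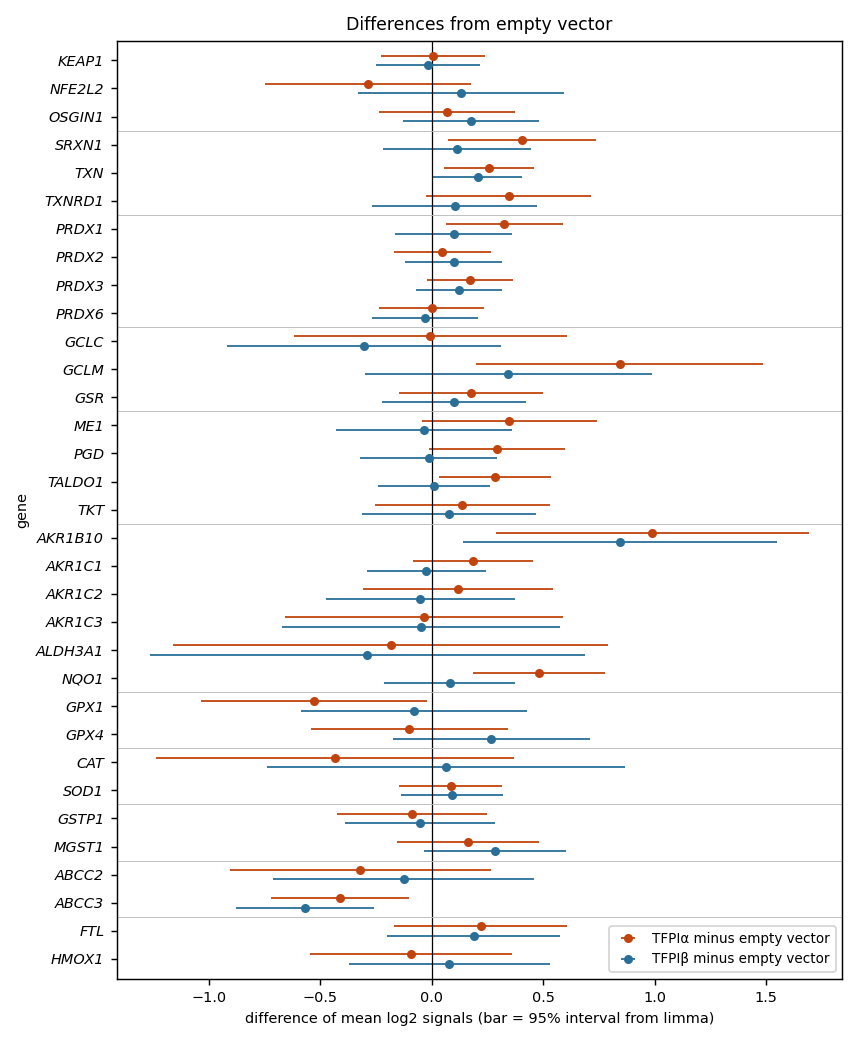
Difference of mean log2 signals from the empty vector-labelled arrays (horizontal axis) for the 33 members, for TFPIα-labelled (upper point of each pair) and TFPIβ-labelled arrays (lower point), with 95% intervals from limma (n = 3 arrays per group). Intervals of AKR1B10, TXN and ABCC3 leave out 0 for both labels, and those of NQO1, GCLM, SRXN1, PRDX1, TALDO1 and GPX1 for TFPIα alone.

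The labels of both isoforms were set against each other directly. Between TFPIβ-labelled and TFPIα-labelled arrays none of the 33 members was called (all probe sets, 0.0%), and 11 had a log2 fold change above 0 (33.3%, all probe sets 49.7%). NQO1, TALDO1 and PGD, at -0.40, -0.28 and -0.31, had an unadjusted p under 0.05 (9.09% of members, all probe sets 4.7%), and no member did in the other direction (all probe sets, 3.94%). NQO1, TALDO1 and ME1 lay wholly below in the TFPIβ-labelled arrays (9.09%, all probe sets 7.1%), and GPX1 wholly above (3.03%, all probe sets 6.15%). Within each replicate number, 10 members lay lower in all 3 (30.3%, all probe sets 22.9%) and 4 higher (12.1%, all probe sets 20.1%). With the replicate number as a block, GPX1, GPX4 and NFE2L2, at 0.45, 0.37 and 0.42, also had an unadjusted p under 0.05 in the higher direction (9.09%, all probe sets 6.19%). Without TFPIα replicate 2, none of the 3 lower members kept an unadjusted p under 0.05.

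The members also varied with the replicate number, which the labels carry across the groups. The mean over the 33 members was 9.33, 9.35 and 9.10 in TFPIα-labelled replicates 1, 2 and 3 and 9.35, 9.26 and 9.03 in TFPIβ-labelled replicates, against 9.18, 9.18 and 9.11 in empty vector-labelled replicates. It averaged 9.26 ± 0.14 and 9.21 ± 0.16 in the TFPIα- and TFPIβ-labelled arrays and 9.16 ± 0.04 in the empty vector-labelled arrays (SD, n = 3 each). The differences from empty vector were 0.10 and 0.06, each smaller than the SD of its TFPI-labelled arrays, which also holds the variation with the replicate number. AKR1B10, which passed the limit of 5 only through arrays of the TFPI labels, is part of this mean and adds to both differences. Within numbers 1 and 2 the mean was higher under each TFPI label than under empty vector. Within number 3 it was lower for TFPIβ, at 9.033 against 9.106, and nearly the same for TFPIα, at 9.101. Replicate 3 was the lowest in each label. Of the 33 members, 27 were above their own mean in replicate 1 of both TFPIα and TFPIβ, against 14 in empty vector replicate 1. In replicate 3, 12 and 5 were above it for TFPIα and TFPIβ, against 8 for empty vector. The same counts over all probe sets were not taken, so these are not shown to be particular to the members.

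Between the 3 arrays numbered 1 and the 6 numbered 2 and 3, with the label as a term of the fit, the log2 difference was above 0 for 27 members (81.8%, all probe sets 58.6%). None was called (all probe sets, 0.0%), and 4 had an unadjusted p under 0.05, all higher (12.1%, all probe sets 8.39%): AKR1C3 at 0.42 ± 0.14, AKR1C2 at 0.35 ± 0.11, GSR at 0.21 ± 0.09 and GSTP1 at 0.20 ± 0.07 (SE, limma adjusted p of 0.258 to 0.367). No member lay lower at that level (all probe sets, 5.09%). Without TFPIβ replicate 1 none of the 33 had an unadjusted p under 0.05 in this comparison. AKR1C2 measured 12.22, 12.20 and 12.21 in the arrays numbered 1, against 12.16, 11.83, 11.87, 11.63, 11.72 and 11.92 in the others, and together with KEAP1 it was a member whose arrays numbered 1 all lay above the other 6 (6.06%, all probe sets 3.9%). AKR1C3 measured 11.13, 10.84 and 10.38 in TFPIα replicates 1, 2 and 3 and 11.22, 10.90 and 10.19 in TFPIβ replicates, against 10.86, 10.88 and 10.71 in empty vector replicates. ALDH3A1, which oxidizes aromatic and lipid aldehydes, measured 10.02, 9.95 and 8.97 in TFPIα replicates and 10.16, 9.87 and 8.59 in TFPIβ replicates, against 9.56, 10.05 and 9.87 in empty vector replicates. For both genes replicate 3 of TFPIα and of TFPIβ were the 2 lowest arrays, and replicate 3 of empty vector was not set apart. What a replicate number stands for beyond an RNA isolation is not given in the sources used here.

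A wider list of 89 measured antioxidant genes outside the members had a median log2 fold change of 0.02 between TFPIα-labelled and empty vector-labelled arrays, with 48 above 0 (53.9%, all probe sets 50.0%). At an unadjusted p under 0.05, 5 lay higher (5.62%, all probe sets 8.59%) and 12 lower (13.5%, all probe sets 5.58%). SOD2, the mitochondrial superoxide dismutase, measured 10.34, 10.41 and 10.91 in the TFPIα-labelled arrays and 11.11, 11.15 and 10.70 in the TFPIβ-labelled arrays, against 11.42, 11.77 and 11.44 in the empty vector-labelled arrays, with log2 fold changes of -0.99 ± 0.19 (SE, FC 0.503, limma adjusted p = 0.289) and -0.56 ± 0.19 (limma adjusted p = 1). ACO1, the iron-responsive aconitase, measured 9.66, 9.60 and 10.12 in the TFPIα-labelled arrays and 9.74, 9.23 and 9.69 in the TFPIβ-labelled arrays, against 10.44, 10.29 and 10.43 in the empty vector-labelled arrays. SLC11A2, an iron transporter, lay at 6.86 to 7.18 in the TFPIα-labelled arrays and 7.06 to 7.11 in the TFPIβ-labelled arrays, against 7.32 to 7.66 in the empty vector-labelled arrays. For these 3 genes the empty vector-labelled arrays were all above the other 6. GLO1, which clears methylglyoxal with glutathione, lay the other way, at 9.58 to 9.65 in the TFPIα-labelled arrays and 9.33 to 9.74 in the TFPIβ-labelled arrays, against 9.22 to 9.26 in the empty vector-labelled arrays.

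Between TFPIβ-labelled and empty vector-labelled arrays 1 of the 89 lay higher (1.12%, all probe sets 2.49%) and 5 lower (5.62%, all probe sets 2.23%) at an unadjusted p under 0.05. Between TFPIβ-labelled and TFPIα-labelled arrays 2 lay higher (2.25%, all probe sets 3.94%) and 4 lower (4.49%, all probe sets 4.7%). BTRC, a substrate receptor of the ubiquitin ligase that marks NRF2 independently of KEAP1, lay lower in TFPIβ-labelled arrays in both, with log2 fold changes of -0.37 and -0.29, and CUL3, the scaffold of the KEAP1 ligase, had -0.27 against TFPIα. AKR7A3, an aldehyde reductase, had 0.26 and 0.22, at signals of 5.00 to 5.22 in the TFPIβ-labelled arrays and 4.83 to 4.96 in the other 6, so it passed the limit of 5 only through the TFPIβ-labelled arrays and had to be higher there. With the replicate number, 13 of the 89 lay higher (14.6%, all probe sets 8.39%) and 3 lower (3.37%, all probe sets 5.09%) in the arrays numbered 1. TFRC, the transferrin receptor, measured 9.73, 9.31 and 9.87 in the arrays numbered 1, against 9.62 to 10.65 in the other 6, a log2 difference of -0.65 ± 0.11 (SE, limma adjusted p = 0.134), and PGLS, of the pentose phosphate pathway, had 0.47 ± 0.09 (limma adjusted p = 0.14).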

How the data were processed

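The authors deposited log2 signals, 1 per probe set, which they had made from the array scans by RMA with Partek software. Versions are not given in the sources used here, and the base of the logarithm was inferred from how high the values reach. Symbols came from the array annotation. A gene was represented by its probe set of that symbol alone with the highest mean signal, and probe sets whose highest signal was under 5 were removed, which left 17482 of 33297. limma 3.58.1 (R 4.3.3) was run on the 9 arrays in 1 model, and p-values were adjusted over all 17482 by Benjamini-Hochberg. The replicate number was fitted in a separate model with the label as a term, and as a block: deviations of same-numbered arrays correlated at 0.137 to 0.594 in all 9 pairs, against -0.512 to 0.266 in the other 18, so the numbers were taken to pair the arrays. Since exact permutation of 3 against 3 arrays reaches p = 0.1 at the lowest, it was not used for single genes. The number of arrays limits the precision. Dim probe sets, the block, left-out arrays and other choices were tried as alternatives. The members and gene lists were chosen with earlier results of these data known. Every member may be named, and of the other antioxidant genes at most the 4 of lowest p in a comparison. Promoter letters came from the RefSeq table of GRCh38.p14, without an entry for ABCC3, AKR1B10, ALDH3A1, FTH1, GSR, HMOX1, PRDX1, PRDX6 and SOD1. Figures were drawn with matplotlib 3.10.9.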

Additional observations from a re-analysis of the deposited data

How the results depend on the processing

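No member was called in any comparison under any alternative. With the replicate number as a block, probe sets called between TFPIα-labelled and empty vector-labelled arrays were 0 in place of 1, as they were without variance moderation, with only the compared groups, without the 3 arrays numbered 1, with no filter and with centred arrays, and 0 to 4 with 1 array left out. Members of unadjusted p under 0.05 numbered 7 higher (2 to 8 with 1 array left out, 2 without TFPIα replicate 2 and 4 without empty vector replicate 2) and 2 lower (1 without moderation or with the mean of all probe sets, 0 without the arrays numbered 1, 0 to 2 with 1 array left out, 0 without TFPIα replicate 2 or without empty vector replicate 1). Between TFPIβ-labelled and empty vector-labelled arrays, 2 members lay higher (1 without moderation, with only the compared groups or with centred arrays, 0 without the arrays numbered 1 or with the limit at 6, 1 without AKR1B10, 0 to 3 with 1 array left out) and 1 lower (1 to 2 with 1 array left out). Between TFPIβ-labelled and TFPIα-labelled arrays, the block gave 1 probe set called in place of 0 and 3 members higher in place of 0, the mean of probe sets gave 1 higher, and centring gave 1 lower in place of 3. With 1 array left out, these ran from 0 to 2 higher and 0 to 5 lower, and members above 0 from 7 (without TFPIβ replicate 1) to 19 (without TFPIβ replicate 3) in place of 11. Between replicate number 1 and the others, probe sets called were 9 at an adjusted p under 0.10 and 2 with no filter in place of 0 (0 to 1 with 1 array left out), and members higher 2 with centred arrays in place of 4 (0 to 7 with 1 array left out), with 0 to 1 lower. The mean over members within number 3, as a block, was -0.073 for TFPIβ minus empty vector, in place of 0.056. GCLC between TFPIα-labelled and empty vector-labelled arrays was 0.16 without the arrays numbered 1 and -0.28 to 0.21 with 1 array left out, and NQO1 between TFPIβ-labelled and empty vector-labelled arrays ran from -0.029 (without TFPIβ replicate 1) to 0.14. Leaving out AKR1B10 was chosen after seeing the data and moved no other count by over 1.5 times. The causes were not tested. The limit at 6 removes AKR1B10 but keeps TXN, whose highest signal was 11.47 and which no longer had an unadjusted p under 0.05 for TFPIβ there. Signal close to the array medians limits AKR1B10, HMOX1 and AKR7A3.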
